A study of Mus musculus with 8 samples.

Results

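Norrin (Ndp), its receptor complex and a set of Wnt/β-catenin target genes were followed in retinal RNA of mice with oxygen-induced retinopathy. The 10 genes were taken by symbol from the 57010 genes of the deposited table, and all 10 were found: Ndp, Fzd4, Lrp5, Lrp6 and Tspan12 (ligand and receptor complex), Ctnnb1 (β-catenin), and Axin2, Lef1, Apcdd1 and Nkd1 (target and feedback genes). The 8 libraries came from retinas of C57BL/6J mice aged 17 days with oxygen-induced retinopathy, an injury in which a period of high oxygen thins the capillary bed of the young retina and new, disordered vessels follow in normal air. The control group (4 libraries, titled AAV_NC) was given a control vector, a self-complementary adeno-associated virus (scAAV), and the knockdown group (4 libraries, titled AAV_sh, with a treatment label of AAV KO) an scAAV against the long noncoding RNA MM2P. Both groups thus carried the retinopathy and a viral vector, and no room-air or vector-free retina was compared here. The serotype and promoter of the vectors and the number of retinas or animals pooled in each library could not be read from the labels.

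Norrin is a secreted ligand that is not a Wnt protein but binds the Frizzled-4 receptor, and in the retina it is made mainly by Müller glia and acts on endothelial cells. Frizzled-4 signals with the co-receptors LRP5 or LRP6, and the tetraspanin TSPAN12 enhances its response to norrin. The signal stabilizes β-catenin, which enters the nucleus and activates genes through TCF/LEF factors, and it is required for growth of the deep retinal capillaries and for the blood-retina barrier. Mutations of NDP, FZD4, LRP5 and TSPAN12 cause familial exudative vitreoretinopathy or Norrie disease in people. The comparison asks whether the RNA levels of this pathway differ when MM2P, a noncoding RNA linked to macrophage polarization, is targeted in the neovascular retina.

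Totals of estimated counts were larger in all 4 controls than in all 4 knockdown libraries, from 16025695 in knockdown 3 to 21402898 in control 3. The targeted RNA, listed as Mm2pr, was counted 1, 1, 16.95 and 7.34 times in the controls, in order of replicate number, and 0, 0, 2 and 20.61 times in the knockdown libraries. It was highest in the library labelled knockdown 4. The counts of 0 to 2 lie below the floor of 3 counts used here, and 7.34, 16.95 and 20.61 carry fractions of a read. Such low counts do not bear out the labels and cannot decide whether the RNA was lowered. The words "control" and "knockdown" below mean libraries so labelled. Rod markers identified the tissue as retina, with 8 genes summing to 30262 to 34162 TPM (a level scaled for gene length and library size) over all libraries. Lens markers did not overlap between the groups, with 9 genes summing to 1.44 to 4.57 TPM in the controls and to 31.1 to 372 TPM in the knockdown libraries (6 of the 9 had no count in at least 1 library). Pigment epithelium markers (8 genes) summed to 257 to 319 and 229.8 to 317 TPM, and erythroid markers (5 genes) to 315 to 462 and 409 to 640.0 TPM. The part of these cells in the results below was not tested. Differences were tested with edgeR's quasi-likelihood test on rounded counts over 16118 genes with at least 1 TPM in at least 4 libraries, with Benjamini-Hochberg adjusted p-values called under 0.05. Nothing in the labels ties a replicate to its own animal, so p-values measure the spread between these libraries.

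No difference between the knockdown and control retinas was detected in any of the 10 genes. All 10 passed the expression filter at 1 TPM or more in all 8 libraries, and in each of them the values of the 2 groups overlapped. edgeR called 0 of the 10 (0 at an unadjusted p under 0.05; 0 in DESeq2 and 0 in limma on log2(TPM + 1)), where it called 0.062% of all tested genes (10 genes; 0.0434% higher and 0.0186% lower). Of the 7 genes called higher, 5 were lens markers. An unadjusted p under 0.05 was reached by 5.27% of all tested genes (2.62% higher and 2.66% lower), and the groups did not overlap for 3.31% of them. The log2 fold changes, knockdown minus control, ran from -0.14 for Lef1 to 0.06 for Lrp5, 5 positive and 5 negative. Their median was 0.0014, against 0.0039 over all tested genes. The smallest adjusted p among the 10 was 0.989 in edgeR. These are bulk retinal libraries, in which 12 endothelial markers summed to 155 to 212 TPM. The levels of the 10 genes therefore do not separate endothelial RNA from that of other cells, and signalling in vessels was not measured. The plot of fold changes with their intervals shows how large a change remained possible for each gene.

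**Figure D1:**
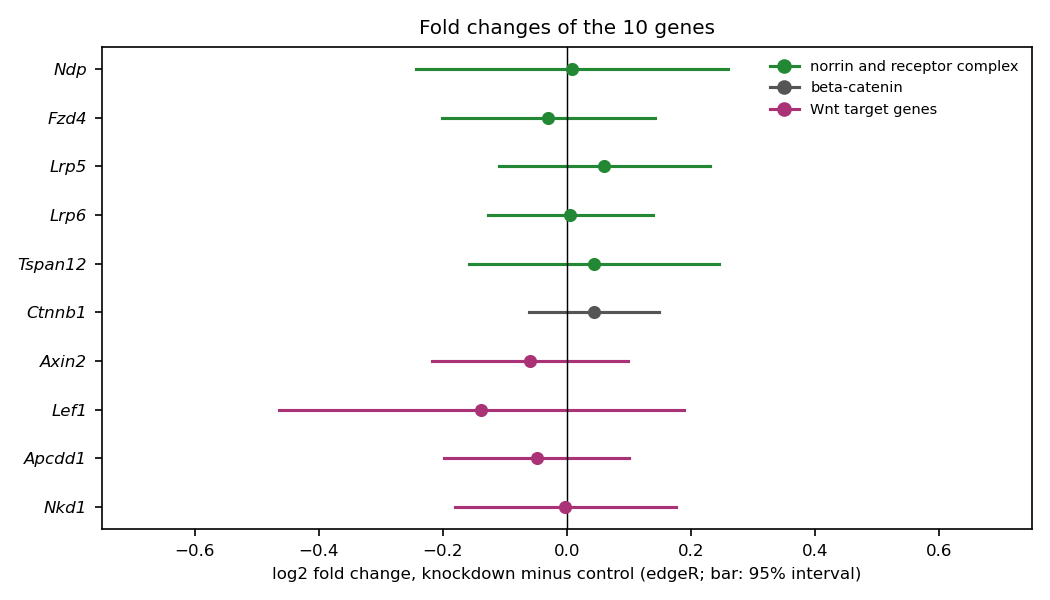
Fold changes of the 10 genes. Points are edgeR log2 fold changes (knockdown minus control, 4 libraries each), bars are 95% intervals, and colours mark the ligand and receptor complex, β-catenin and the target genes. All 10 intervals include 0, and the widest, that of Lef1, runs from -0.46 to 0.19.

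The levels of the 10 genes spanned more than 2 orders of size between Ctnnb1 and Lef1. Averaged over the 8 libraries, Ctnnb1 had 387 TPM, a level that 98.03% of tested genes did not exceed. Apcdd1 followed at 68.0 TPM, then Lrp6 at 26.9, Tspan12 at 21.98, Nkd1 at 18.4, Axin2 at 17.6, Ndp at 12.5, Fzd4 at 9.28, Lrp5 at 8.04 and Lef1 at 3.62 TPM. Neighbours in this order whose ranges over the libraries overlapped were Lrp6 and Tspan12, Tspan12 and Nkd1, Nkd1 and Axin2, and Fzd4 and Lrp5. The other neighbours were separated in all libraries, Ndp and Fzd4 among them. Variation between libraries was small: the coefficient of variation over the 8 libraries was 3.32% for Ctnnb1, 3.99% for Lrp5 and between 6.90% and 8.60% for the others except Lef1 (14.7%), which had both the lowest TPM and the lowest counts, 64.5 to 131.8 per library.

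**Figure D2:**
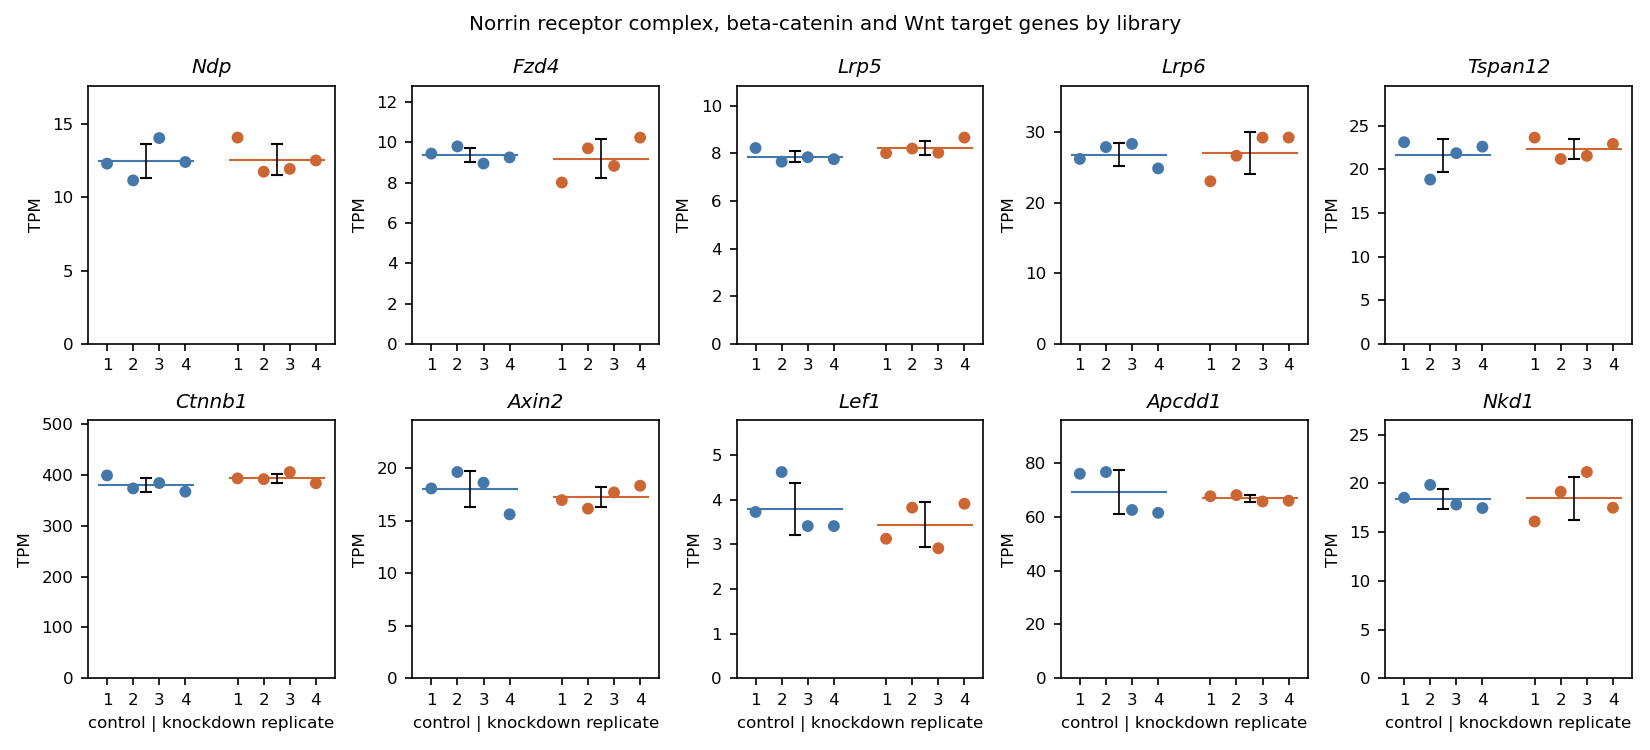
TPM of the 10 genes in each library. Points are libraries (blue, controls 1 to 4; orange, knockdown 1 to 4), lines are group means and bars are SD (n = 4); each vertical axis starts at 0. The groups overlap in every panel, and Ctnnb1 lies near 387 TPM while Lef1 lies near 3.62 TPM.

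The mean levels of the ligand lay closer together than the libraries within each group. Ndp (ENSMUSG00000040138) is a minus-strand gene on chromosome X (16885521 to 16911774 in GRCm38). It had 12.3, 11.2, 14.04 and 12.4 TPM in controls 1 to 4 and 14.07, 11.7, 11.9 and 12.5 TPM in knockdown 1 to 4. Control 3 and knockdown 1 were the high libraries, at almost the same value, and the remaining 6 lay between 11.2 and 12.5 TPM. Group means were 12.5 ± 1.19 and 12.6 ± 1.06 TPM (SD, n = 4), with a log2 fold change of 0.0084 (SE 0.12, edgeR adjusted p = 0.998). The 95% interval of -0.24 to 0.26 corresponds to a change of -15.5% to 19.7% in the knockdown. Ndp had 147 to 235 counts per library.

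Because Ndp is X-linked, the sex-linked transcripts of the libraries are given beside it. Xist, transcribed from the inactive X chromosome, had 0.103 TPM in control 3 and 137 to 398 TPM elsewhere, and the Y-linked gene Ddx3y had 0 counts in control 1 and knockdown 1 and 3 and 814 to 1919 counts elsewhere. The highest Ndp values thus came from a library with almost no Xist (control 3) and from a library with no Ddx3y (knockdown 1). Control 2, control 4, knockdown 2 and knockdown 4 had both transcripts at high levels, as RNA of both sexes would give. The number of animals in each library stays unknown. With the Ddx3y level as a covariate the log2 fold change of Ndp was -0.0015 (edgeR adjusted p = 0.99984).

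The start region of Ndp is shown because Ndp encodes the ligand and its window was 1 of 2 with a match to the motif that TCF/LEF factors recognize. The sequence is RefSeq's on GRCm38.p6, 250 bases before to 50 bases after the annotated start, written 5′ to 3′ on the gene's strand (chrX:16911725-16912024, minus strand); capitals mark a match to a TCF/LEF motif.
Ndp: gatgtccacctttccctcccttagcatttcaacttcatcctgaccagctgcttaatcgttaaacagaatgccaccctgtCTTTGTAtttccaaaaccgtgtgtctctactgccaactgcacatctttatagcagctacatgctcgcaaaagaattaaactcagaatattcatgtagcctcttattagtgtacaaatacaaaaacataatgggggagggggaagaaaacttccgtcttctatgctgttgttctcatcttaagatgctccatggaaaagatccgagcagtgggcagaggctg
The motif was searched on both strands as CTTTG followed by AA, AT, TA or TT, and the match in Ndp is CTTTGTA at base 80 of the window. Of 32851 RefSeq promoter windows of this length, 16.9% hold at least 1 such match. Among the members, 7 genes with 11 windows were found in the table, and 2 of the 11 windows held a match, Ndp and a downstream start of Lef1. A match is a description of letters and says nothing about binding.

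Neither the receptor nor its co-receptors passed the test, and the ratios between them overlapped in the groups. Fzd4 (ENSMUSG00000049791; chromosome 7, 89404355 to 89413134), the norrin receptor, had 9.44, 9.80, 8.95 and 9.25 TPM in controls 1 to 4. The knockdown libraries had 8.01, 9.70, 8.83 and 10.24 TPM, so that they held both the lowest and the highest value of the 8. Fzd4 had a log2 fold change of -0.03 (SE 0.08; edgeR adjusted p = 0.997; 95% interval -0.20 to 0.14, a change of -13.0% to 10.3%). The SD was 0.356 TPM in the controls and 0.981 TPM in the knockdown (n = 4 each).

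Tspan12 (ENSMUSG00000029669; chromosome 6, 21771395 to 21852515), which makes the complex more responsive to norrin, had 23.1, 18.8, 21.9 and 22.6 TPM in the controls and 23.7, 21.2, 21.6 and 22.9 TPM in the knockdown. Control 2 was the low library, and the other 7 lay between 21.2 and 23.7 TPM. For Tspan12 the log2 fold change came to 0.04 (SE 0.09; edgeR adjusted p = 0.997), with a 95% interval of -0.16 to 0.25. Of its 3311 exonic bases 98 overlap the opposite-strand gene Gm30270. The Tspan12 transcript stood at 2.31 ± 0.262 times the Fzd4 level in the controls and 2.46 ± 0.351 times in the knockdown (ratio of TPM; SD, n = 4).

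Lrp5 (ENSMUSG00000024913; chromosome 19, 3584828 to 3686564) is the co-receptor that norrin signalling in retinal vessels depends on most. It had 8.22, 7.65, 7.83 and 7.75 TPM in the controls and 8.0, 8.20, 8.02 and 8.66 TPM in the knockdown. The lowest of the knockdown values, 8.0 TPM in knockdown 1, lay above 3 of the 4 controls and below control 1. Its log2 fold change of 0.06 (SE 0.08) was the most positive of the 10 genes and did not pass (edgeR adjusted p = 0.991; 95% interval -0.11 to 0.23).

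Lrp6 (ENSMUSG00000030201; chromosome 6, 134446476 to 134566965), the co-receptor that also serves most Wnt ligands, was the more abundant of the pair in all 8 libraries. Its levels were 26.2, 27.9, 28.3 and 24.9 TPM in the controls and 23.04, 26.7, 29.2 and 29.2 TPM in the knockdown, again with both extremes in the knockdown group. For Lrp6 it was 0.0053 on the log2 scale (SE 0.06; edgeR adjusted p = 0.998; 95% interval -0.13 to 0.14). The ratio of Lrp6 to Lrp5 TPM was 3.41 ± 0.251 in the controls and 3.29 ± 0.317 in the knockdown (SD, n = 4), with 2.88 in knockdown 1 as the lowest. The ratio of Ndp to Fzd4 TPM was 1.34 ± 0.178 and 1.39 ± 0.256, and its highest value, 1.76, was also in knockdown 1, where Ndp was at its highest and Fzd4 at its lowest.

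β-Catenin RNA was abundant and the most precisely measured. Ctnnb1 (ENSMUSG00000006932; chromosome 9, 120929216 to 120960507) encodes the protein that is stabilized by the pathway, which is regulated mainly by degradation and not through its RNA. Its levels were 399, 373, 384 and 367 TPM in the controls and 393, 391, 405 and 383 TPM in the knockdown. Group means of 380.4 ± 13.97 and 393 ± 9.12 TPM (SD, n = 4) gave a log2 fold change of 0.04 (SE 0.05, edgeR adjusted p = 0.989). The 95% interval of -0.06 to 0.15 corresponds to a change of -4.15% to 10.8%. Of the 5192 exonic bases of Ctnnb1, 759 overlap the opposite-strand gene Ulk4, and the strand setting of the counting is not given.

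The 4 target and feedback genes had fitted fold changes below 0, where 48.2% of all tested genes did, and none passed the test. That of Nkd1 was close to 0, at -0.0025 on the log2 scale. Its sign changed in 3 of the 8 fits that left out single libraries. Axin2 (ENSMUSG00000000142; chromosome 11, 108920349 to 108950783), a scaffold of the complex that degrades β-catenin and a widely used readout of the pathway, had 18.1, 19.6, 18.6 and 15.6 TPM in the controls. The knockdown libraries had 16.97, 16.2, 17.7 and 18.3 TPM, inside the range of the controls. Axin2 had a log2 fold change of -0.06 (SE 0.07; edgeR adjusted p = 0.989; 95% interval -0.22 to 0.10, a change of -14.0% to 7.11%). Of its 5506 exonic bases 209 overlap the opposite-strand gene Gm11670.

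Lef1 (ENSMUSG00000027985; chromosome 3, 131110471 to 131224356), a DNA-binding partner of β-catenin that norrin signalling induces in retinal endothelium, had the most negative fold change of the 10. Its levels were 3.73, 4.62, 3.41 and 3.41 TPM in the controls and 3.13, 3.82, 2.91 and 3.91 TPM in the knockdown. Control 2 was the highest and knockdown 3 the lowest, and knockdown 2 and 4 lay above 3 of the 4 controls. For Lef1 it came to -0.14 (SE 0.15; edgeR adjusted p = 0.989), with a 95% interval that corresponds to a change of -27.5% to 13.9%. All 8 counts of Lef1 carried fractions of a read, and 1208 of its 8788 exonic bases overlap the opposite-strand gene Gm43352, so part of its reads is of uncertain origin.

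Apcdd1 (ENSMUSG00000071847; chromosome 18, 62922231 to 62961179), a membrane-bound Wnt inhibitor expressed in barrier-forming vessels and other cells, was unevenly expressed in the controls. Controls 1 and 2 had 75.97 and 76.6 TPM and controls 3 and 4 had 62.5 and 61.5 TPM, while the knockdown libraries lay between these pairs at 67.6, 68.05, 65.7 and 65.96 TPM. The SD was 8.27 TPM in the controls and 1.18 TPM in the knockdown (n = 4 each). A log2 fold change of -0.05 was fitted (SE 0.07; edgeR adjusted p = 0.996; 95% interval -0.20 to 0.10).

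Nkd1 (ENSMUSG00000031661; chromosome 8, 88521354 to 88594884), a feedback inhibitor that acts on Dishevelled, had 18.5, 19.8, 17.8 and 17.5 TPM in the controls and 16.1, 19.1, 21.2 and 17.5 TPM in the knockdown. As for Fzd4 and Lrp6, both extremes were knockdown libraries. A log2 fold change of -0.0025 was fitted (SE 0.08; edgeR adjusted p = 0.9997; 95% interval -0.18 to 0.18).

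Start regions of Axin2 and Lef1 are shown because transcription of these genes is the output that TCF/LEF factors drive. The Axin2 window (chr11:108920099-108920398, plus strand) held no match to the motif letters. The Lef1 window (chr3:131156044-131156343, plus strand) belongs to a start inside the gene and held TACAAAG, the reverse complement of CTTTGTA, at base 104, in capitals; the other 3 Lef1 windows held none.
Axin2: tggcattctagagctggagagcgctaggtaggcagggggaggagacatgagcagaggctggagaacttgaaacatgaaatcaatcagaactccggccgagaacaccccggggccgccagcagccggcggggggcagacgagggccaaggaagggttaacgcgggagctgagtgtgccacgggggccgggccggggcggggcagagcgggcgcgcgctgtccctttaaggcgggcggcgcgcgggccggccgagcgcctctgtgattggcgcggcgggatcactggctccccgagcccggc
Lef1: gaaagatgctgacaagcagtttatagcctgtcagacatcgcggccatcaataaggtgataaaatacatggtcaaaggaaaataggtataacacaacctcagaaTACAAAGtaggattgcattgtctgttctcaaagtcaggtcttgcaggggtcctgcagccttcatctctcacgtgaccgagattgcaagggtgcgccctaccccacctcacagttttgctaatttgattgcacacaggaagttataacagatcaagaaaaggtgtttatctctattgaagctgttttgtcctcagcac
Both are RefSeq sequences on GRCm38.p6, and no match says only that these letters are not in this window.

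The highest and lowest values of the 10 genes were unevenly spread over the libraries. Control 2 held the highest value of Axin2, Lef1 and Apcdd1 and the lowest of Ndp, Lrp5 and Tspan12. Knockdown 1 held the highest of Ndp and Tspan12 and the lowest of Fzd4, Lrp6 and Nkd1, and knockdown 4 the highest of Fzd4, Lrp5 and Lrp6. Knockdown 1 also had the lowest sum of endothelial markers (155 TPM, 12 genes) and the highest sum of macrophage and microglia markers (140.0 TPM, 11 genes, against 96.5 to 127 TPM in the other libraries). The part of these markers in the values of knockdown 1 was not tested.

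Genes whose levels followed a member most closely over the 8 libraries were looked up among 11322 tested genes with a mean of at least 5 TPM. For Ndp they were Ift43 (Pearson r = 0.972 and Spearman rho = 0.833 on log2 CPM), Amacr (0.962 and 0.905) and Ramp3 (0.957 and 0.881), and r was 0.912, 0.894 and 0.866 without the 2 libraries farthest from the median. For Fzd4 they were Ypel4 (r = 0.979, rho = 0.929), Rapgefl1 (0.954 and 0.905) and Hectd2 (0.949 and 0.976), and r was 0.929, 0.853 and 0.848 without knockdown 1 and 3. For Axin2 they were Brpf1 (0.957 and 0.976), Lrrc56 (0.956 and 0.952) and Crat (0.931 and 0.881), and r was 0.922, 0.964 and 0.791 without knockdown 2 and control 4. These 9 genes are the best of many candidates over few libraries that share depth and tissue composition, and the coefficients are given as a description with no test.

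No other gene of the pathway passed in edgeR. A further 102 genes in 7 lists covered ligands, receptors, intracellular and nuclear components, inhibitors, targets and norrin-dependent endothelial genes, and 74 of them passed the filter. edgeR called 0 of the 74, with 4 at an unadjusted p under 0.05 where 5.27% of all genes reached it. Fold changes were positive for 38 and negative for 36, and the log2 median was 0.0026. In DESeq2 1 of the 74, Abcb1a, passed.

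Among 23 Wnt and R-spondin ligands 7 were tested, and 16 lay below the filter with means of 0.971 TPM or less. Wnt2b had 8.52 ± 0.388 and 8.36 ± 1.105 TPM and Wnt5a, a ligand of non-canonical signalling, 5.31 ± 0.466 and 5.95 ± 0.505 TPM (control and knockdown; SD, n = 4; edgeR adjusted p = 0.997 and 0.968). Wnt9b, with the smallest p after Wnt5a, had 2.80 ± 0.447 and 2.35 ± 0.529 TPM (edgeR adjusted p = 0.989). The mean of Ndp, at 12.5 TPM, was above that of each of the 23 ligands. Wnt7a and Wnt7b, the ligands that drive barrier formation in brain vessels, had 0 to 4 and 1 to 9 counts per library against a floor of 3 counts; both were chosen after their values were seen.

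Of 18 other receptors and co-receptors 17 were tested, 11 with positive and 6 with negative fold changes. Fzd5 was the most abundant Frizzled gene of the list, at 49.8 ± 2.17 and 53.6 ± 4.45 TPM (edgeR adjusted p = 0.951), above Fzd4 in all libraries. The Wnt receptor kinase gene Ryk had 47.9 ± 3.18 and 48.8 ± 1.34 TPM. Fzd2 had the smallest p of the list: 0.968, 1.20, 0.822 and 0.897 TPM in the controls and 1.15, 1.31, 1.38 and 1.63 TPM in the knockdown, with a log2 fold change of 0.49 (SE 0.22, edgeR adjusted p = 0.930). Its 26 to 48 counts per library lay close to the filter, and on the CPM scale its groups did not overlap, as for 3.31% of all tested genes.

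All 12 genes of the Dishevelled and β-catenin destruction complex list were tested, 6 positive and 6 negative, and their fold changes lay between -0.08 and 0.09 on the log2 scale. The kinase genes Csnk1a1 (481 ± 10.95 and 483 ± 17.96 TPM) and Gsk3b (375 ± 15.5 and 384 ± 30.2 TPM), whose products phosphorylate β-catenin, were of the same order as Ctnnb1. Gsk3a had 120.7 ± 5.02 and 115.4 ± 3.42 TPM and the ubiquitin ligase gene Btrc 114.1 ± 9.62 and 121.3 ± 13.98 TPM (edgeR adjusted p = 0.989 for both). Of the 13 nuclear partners, 6 were positive and 7 negative. Ctnnbip1, which encodes an inhibitor of the β-catenin and TCF interaction, had 209 ± 5.45 and 203 ± 10.6 TPM, and Cby1, another antagonist gene, 58.1 ± 5.36 and 58.4 ± 4.02 TPM. Those with the smallest p were the co-activator gene Bcl9l at 14.95 ± 1.35 and 13.4 ± 1.64 TPM and the TCF gene Tcf7l2 at 3.12 ± 0.735 and 3.72 ± 0.614 TPM (edgeR adjusted p = 0.951 and 0.989).

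Among 15 extracellular inhibitors 6 were tested. Dkk3, a Dickkopf-family gene, had 495 ± 17.6 and 512 ± 10.8 TPM, the highest level of the list, and the Frizzled-related gene Frzb 24.5 ± 1.85 and 24.2 ± 1.27 TPM. Sfrp1 had 5.19 ± 0.742 and 5.79 ± 0.255 TPM. Kremen1, a receptor gene for Dickkopf proteins, had 21.4 ± 1.52 and 24.2 ± 5.03 TPM, with 31.6 TPM in knockdown 1 and 21.2 to 22.5 TPM in the other knockdown libraries (edgeR adjusted p = 0.989). Of 10 further target genes 8 were tested, 5 positive and 3 negative, and the median log2 fold change was 0.17. Nkd2, the paralog of Nkd1, had 1.67, 1.19, 0.894 and 0.847 TPM in the controls and 1.52, 1.42, 1.69 and 2.32 TPM in the knockdown (log2 fold change 0.60, SE 0.25, edgeR adjusted p = 0.908). Ccnd1 (cyclin D1) had 25.9 ± 1.72 and 29.1 ± 3.99 TPM, and the adhesion receptor gene Cd44 8.70 ± 1.17 and 11.2 ± 3.34 TPM, with 16.2 TPM in knockdown 1 (edgeR adjusted p = 0.961 and 0.930). The median of these targets was positive while Axin2, Lef1 and Apcdd1 were negative and Nkd1 was close to 0 (-0.0025). Of either set 0 genes were called.

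**Figure D3:**
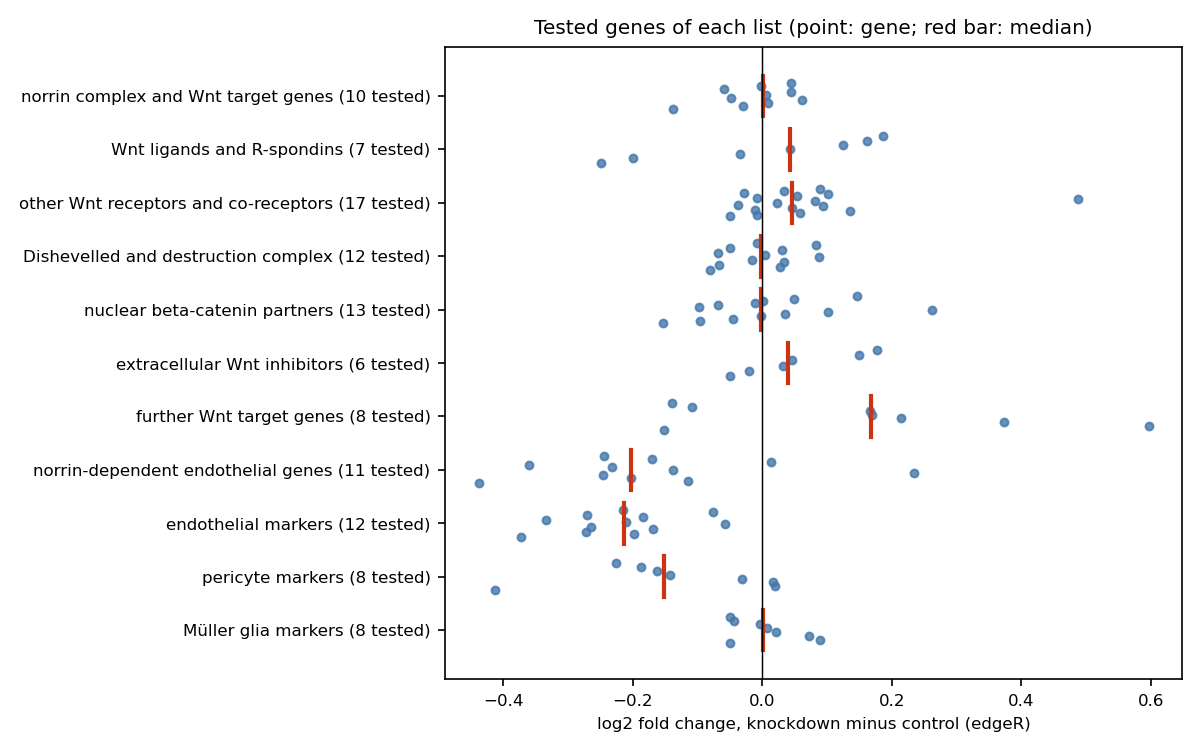
Fold changes by list. Each point is a tested gene (edgeR log2 fold change, knockdown minus control), red bars are list medians, and the number tested is given with each list; vertical position within a row only separates the points. The norrin complex and Wnt target genes centre on 0.0014, while the endothelial markers and the norrin-dependent endothelial genes have medians of -0.21 and -0.20.

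Endothelial genes that norrin or β-catenin signalling is known to regulate in the retina had mostly lower means in the knockdown, and so did endothelial and pericyte markers. In this norrin-dependent list 9 of 11 genes had negative fold changes, where 48.2% of all tested genes did, and the median was -0.20 on the log2 scale. The 2 positive genes were Slc2a1 and Plvap, and since norrin signalling lowers Plvap and maintains others, the count and median cover genes of both kinds of regulation. edgeR called 0 of the 11, and 2 had an unadjusted p under 0.05, Abcb1a and Cldn5. Over all tested genes 5.27% had an unadjusted p under 0.05 in edgeR, 2.66% with a lower level. In the list of 12 endothelial markers, such as Pecam1 and Cdh5, the fold change was negative for all 12 (median -0.21), 0 were called, and 7 had an unadjusted p under 0.05. These markers summed to 212, 201, 175 and 173 TPM in the controls and to 155, 167, 168 and 174 TPM in the knockdown. In such bulk samples fewer cells of a type and less RNA per cell cannot be told apart. Markers of a cell type were read in the same 8 libraries, so the counts of genes here are not independent observations. Of 8 pericyte markers 6 had negative fold changes (median -0.15), 0 were called, and 3 had an unadjusted p under 0.05. Cspg4, which encodes the NG2 proteoglycan of pericytes, had the largest of these changes, with 2.37 ± 0.273 and 1.78 ± 0.0607 TPM (n = 4 each, SD). Its log2 fold change was -0.41 (adjusted p = 0.513 in edgeR), and it was chosen after its values were seen. The groups did not overlap for Cspg4, as for 3.31% of all tested genes on the CPM scale. The pericyte markers, of which Rgs5 made up most, summed to 225 to 270 TPM in the controls and 210 to 237 TPM in the knockdown, and Müller glia markers to 3509 to 3673 and 3404 to 3678 TPM. Lower means were not limited to vascular lists. Of 7 tested pigment epithelium markers 4 had negative and 3 positive fold changes, with a median of -0.22, near that of the endothelial markers. Of these 7, 0 were called, and an unadjusted p under 0.05 was reached by 2 higher and 1 lower. Of 8 rod markers 7 had negative fold changes (median -0.058), 0 were called, and 1 had an unadjusted p under 0.05. The rod markers summed to 32360 to 34162 TPM in the controls and 30262 to 32701 TPM in the knockdown. Negative fold changes were found for 4 of 8 Müller glia markers and 5 of 11 macrophage and microglia markers.

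Abcb1a, which encodes the efflux pump P-glycoprotein of barrier endothelium (ENSMUSG00000040584; chromosome 5, 8660077 to 8748575), had 7.26, 7.62, 7.79 and 7.01 TPM in the controls and 4.65, 5.05, 6.33 and 6.02 TPM in the knockdown. All 4 knockdown values lay below all 4 controls, and 3.31% of all tested genes likewise had no overlap on the CPM scale. Its log2 fold change was -0.44 (SE 0.10), and it did not pass in edgeR (adjusted p = 0.222) but passed narrowly in DESeq2 (adjusted p = 0.0494), which called 0.279% of all genes. Of its 8 estimated counts 1 was a whole number, and its close paralog Abcb1b had 11.03 to 26.6 counts per library, which leaves uncertain how reads were divided between the pair. Set against the endothelial marker sum of the same library, Abcb1a stood at 3.93% ± 0.429 in the controls and 3.31% ± 0.368 in the knockdown (SD, n = 4). This gap was larger than either SD, the ranges of 3.43% to 4.44% and 2.997% to 3.76% overlapped, and the difference in share was not tested.

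Cldn5, the main tight junction claudin of these vessels (ENSMUSG00000041378, chromosome 16, 18776847 to 18778262), had 64.4, 60.5, 59.5 and 60.5 TPM in the controls. The knockdown libraries had 53.8, 56.01, 48.4 and 50.4 TPM, with no overlap, as for 3.31% of all tested genes on the CPM scale. A log2 fold change of -0.23 was fitted for Cldn5 (SE 0.07; edgeR adjusted p = 0.647). Relative to the endothelial marker sum it stood at 32.3% ± 2.51 in the controls and 31.5% ± 3.05 in the knockdown (SD, n = 4). The glucose transporter gene Slc2a1, which neurons and glia of the retina also express, had 207 ± 3.80 and 209.7 ± 7.09 TPM. The norrin-induced transcription factor gene Sox17 had 4.96 ± 1.103 and 4.17 ± 0.678 TPM (edgeR adjusted p = 0.989). Plvap, a gene of fenestrated vessels that loss of norrin signalling raises, had 3.68 ± 0.364 and 4.32 ± 0.359 TPM (edgeR adjusted p = 0.989). Sox17 and Plvap were chosen after their values were seen.

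Fzd4 was set against the endothelial marker sum of the same library, and the ratio had a higher mean in the knockdown that did not pass the test. It stood at 4.46%, 4.87%, 5.10% and 5.36% of the endothelial marker sum in controls 1 to 4 and at 5.16%, 5.81%, 5.24% and 5.89% in knockdown 1 to 4. Knockdown 1 and 3 lay inside the range of the controls and knockdown 2 and 4 above it. The means of 4.95% ± 0.384 and 5.52% ± 0.376 (SD, n = 4) differed by a factor of 1.12, a gap larger than either SD, but the ranges overlapped and the test was not passed (exact two-sided permutation p = 0.114; 0.229 adjusted over this ratio and the next). The smallest p that 4 against 4 libraries allow is 0.0286. Fzd4 itself had a log2 fold change of -0.03, while the marker sum had a mean of 190 TPM in the controls and 166 TPM in the knockdown. The higher ratio thus went with a lower marker sum and not with more Fzd4 RNA. The cells that gave the Fzd4 RNA were not separated, so the ratio is not a level per endothelial cell. Ndp TPM stood at 0.347% ± 0.0280 of the Müller glia marker sum in the controls and 0.356% ± 0.0349 for the knockdown group (n = 4 each, SD; p = 0.600 by the same exact permutation test, 0.600 adjusted).

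**Figure D4:**
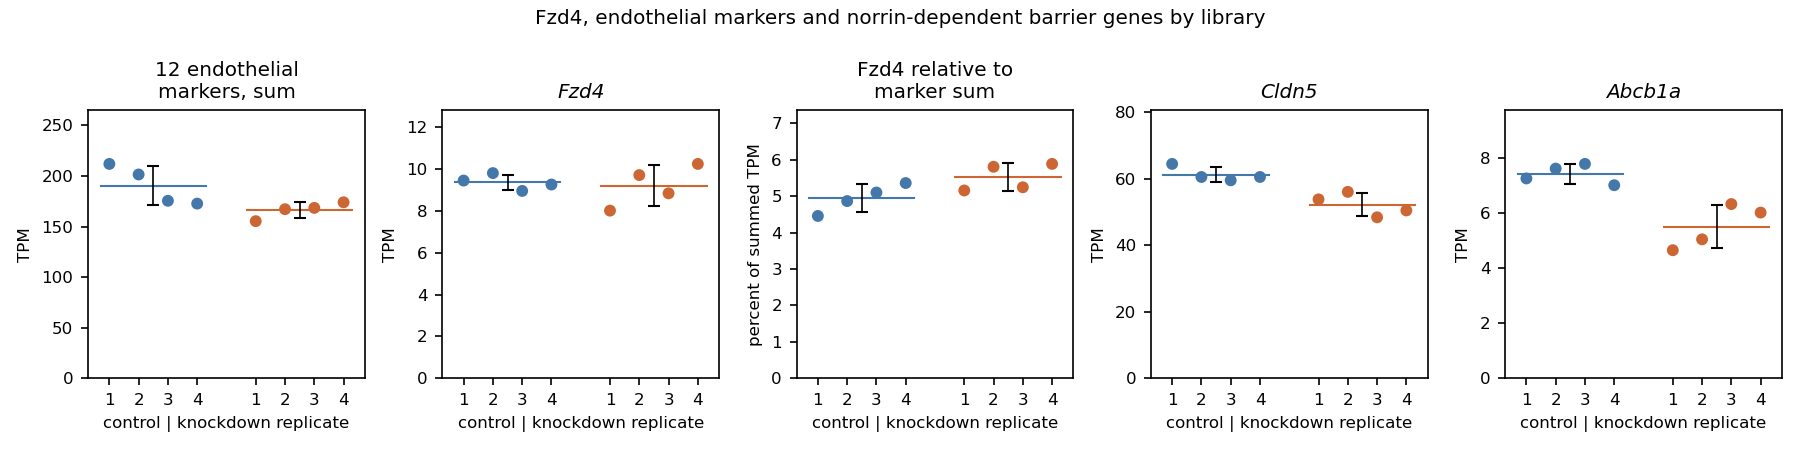
Fzd4 and endothelial genes in each library. Panels show, from left, the summed TPM of 12 endothelial markers, Fzd4 TPM, Fzd4 as a percent of that sum, and the TPM of Cldn5 and Abcb1a; points are libraries (blue, controls; orange, knockdown), lines are group means, bars are SD (n = 4), and each vertical axis starts at 0. Cldn5 and Abcb1a separate the groups, as 3.31% of all tested genes did on the CPM scale, and neither was called in edgeR. Fzd4 overlaps, at 8.95 to 9.80 TPM in the controls and 8.01 to 10.24 TPM in the knockdown.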

How the data were processed

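Retinal RNA of 8 libraries was sequenced by the submitters as paired 150-base reads after TRIzol extraction, per the labels' protocols. Despite TPM in its name, the table the authors deposited holds estimated counts, as its totals and mostly whole values show. The submitters' processing notes list Bowtie 0.12.2 and mm9 without saying what each was used for, and the counting tool is not given in the sources used here. Gene lengths (another column the authors deposited) were used to compute TPM. Counts were rounded and tested in edgeR 4.0.16 (TMM, group as the only term; limma 3.58.1 and DESeq2 1.42.0 as alternatives; R 4.3.3). Intervals are 95% from the edgeR SE, taken as the size of the log2 value divided by the root of F, with 10.6 to 13.6 degrees of freedom per gene. The floor is 3 counts, and floors cover counting error only. Tests were tried on simulated data. The members and lists were chosen with earlier results of these data known. Pathway genes were named as the called members of a list, or else the 2 with the highest TPM and the 2 with the smallest p; the lens, pigment epithelium and erythroid lists were counted as markers of other cells. Positions are from GENCODE M21 (GRCm38), where 91.3% of the gene identifiers were found.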

Additional observations from a re-analysis of the deposited data

Results flagged for a closer look

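In 88 sets of 4 libraries, 7 held a library far from the other 3, where chance gives about 1 in 20. Btrc had 100.5 TPM in knockdown 1 and 126 to 130.4 TPM in the other knockdown libraries. Kremen1 had 31.6 TPM in knockdown 1 and 21.2 to 22.5 TPM in the others. The macrophage and microglia markers summed to 140.0 TPM in knockdown 1 and to 96.5 to 102.7 TPM in the others. Tcf7l2 had 2.80 TPM in knockdown 3 and 4.02 to 4.04 TPM in the others, and the lens markers summed to 372 TPM in knockdown 3 and to 31.1 to 87.1 TPM in the others. Among the controls, Sfrp1 had 6.31 TPM in control 4 against 4.80 to 4.86 TPM, and Cd44 10.5 TPM in control 3 against 8.08 to 8.15 TPM. None of the 10 norrin and Wnt target genes was among them.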

How the results depend on the processing

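The number of the 10 genes called was 0 under all 18 alternatives, and the largest fold change any of them reached was 0.202 in size on the log2 scale. The number of genes called over the whole table was 45 with DESeq2, 0 with limma on log2(TPM + 1), 157 with no filter, 1 at a mean TPM of at least 5 (Lef1 was then not tested), 0 with a robust dispersion and 0 to 58 leaving out single libraries (0 without control 1 or control 2, 1 without control 4, 58 without control 3); the cause was not tested. Among the alternatives that kept all 8 libraries, signs changed for Lrp6, Ndp and Fzd4 only. Lrp6 was -0.0012 with no filter, and with Ddx3y as a covariate Ndp was -0.0015 and Fzd4 6.1948e-05. Leaving out single libraries, the log2 fold change ran from -0.074 to 0.073 for Ndp, -0.081 to 0.014 for Fzd4, -0.030 to 0.057 for Lrp6, -0.029 to 0.085 for Tspan12 and -0.059 to 0.039 for Nkd1, and the signs of Lrp5, Ctnnb1, Axin2, Lef1 and Apcdd1 did not change. The difference in the Ndp to Müller glia ratio ran from -0.0068 to 0.0215 percentage points. That of Fzd4 to endothelial markers ran from 0.415 to 0.716, with exact permutation p from 0.0571 to 0.229 (0.0571 with the mean of log2 marker levels). Abcb1a passed with no filter (edgeR adjusted p = 0.0485) and in DESeq2 (0.0494), and its adjusted p was 0.217 to 0.733 under the other alternatives; the endothelial and norrin-dependent lists kept negative medians (-0.15 to -0.23 leaving out single libraries), and at a mean TPM of at least 5 the norrin-dependent list had 5 negative genes, since fewer were tested. Alternatives for these lists and Abcb1a were added after seeing the data. Same-numbered libraries showed no shared deviation (r from -0.155 to 0.0087 for the 4 pairs), so they were not treated as pairs. With the replicate number as a block, 11 genes and 0 of the 10 were called. For the ratios the block version flipped the signs of the same-numbered differences, with an exact p of 0.125 for Fzd4 and 0.625 for Ndp. The smallest p that 4 pairs allow in this way is 0.125, so this version could not pass and decides nothing for Fzd4. Depth limits Lef1 most, at 64.5 to 131.8 counts per library.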
